A study of Mus musculus with 13 samples.

Results

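Ligands of the epidermal growth factor (EGF) receptor, the receptors themselves and their inhibitors were described in colon epithelium. The 10 genes, of 32285 in the deposited matrix, are a list of names with no threshold on their values. They are the ligands Areg, Ereg, Hbegf, Tgfa and Epgn, the receptors Egfr, Erbb2 and Erbb3, and the inhibitors Lrig1 and Errfi1. Cells came from whole colons of C57BL/6J mice that were either wild type and treated with antibiotics or germ-free and given no treatment in the labels. In both groups the cells of a condition were pooled and sorted as EPCAM-positive and CD45-negative, with CD44-positive (proliferative) and CD44-negative (differentiated) cells taken 1:1, and were read with a droplet assay that counts the 3' ends of transcripts. The labels give neither the antibiotics used nor the number or age of the mice. Control mice and the sample barcode libraries were not analysed here.

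EGF family ligands are made as membrane-bound precursors and are shed from the cell surface by metalloproteases. They bind EGFR, which pairs with itself or with the related receptors ERBB2 and ERBB3 and signals through the RAS-MAPK chain. In the gut epithelium this signal supports the growth of crypt cells and repair after injury, and it is held back by inhibitors that the pathway itself can induce.

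Summed over cells, 36530277 unique molecules (UMI) were counted in 3415 antibiotic cells and 3100880 in 768 germ-free cells. Cell names split the pools into 5 cell sets, called antibiotic sets 1, 2 and 3 and germ-free sets 3 and 4 after the numbers in the names. Each condition was a single pool and had a batch of its own. Batch and condition therefore cannot be told apart, the sets are not replicates, and no test was run. Median UMI per cell ran from 6599 to 7420 in the antibiotic sets and were 1045 and 4682 in the germ-free sets, and mitochondrial genes took 12.4% and 18.7% of UMI. In the antibiotic pool 810 barcodes occurred in more than 1 cell set, 27 of them in all 3, and in the germ-free pool none did. The 837 shallower copies were 24.5% of antibiotic cells but held 3.40% of the UMI. With only the deepest copy of each kept, every count of members in the 7 main comparisons was the same as with all cells. The label of epithelium fitted the markers: the 4 epithelial genes summed to 4943 and 5273 UMI scaled to a total of 1000000 (CPM), against 5.89 and 5.48 CPM for 6 immune genes and 0.41 and 0.32 CPM for 6 stromal genes.

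A level is the sum of UMI over cells, in CPM, with an exact 95% Poisson interval where one is given. A fold has a conditional binomial 95% interval. Both intervals cover counting error alone; the spread between mice could not be measured. A gene was ranked in a comparison if its UMI in both groups summed to at least 100 and its level reached 20 CPM in at least 1 group. It was called, and only then is said to be higher or lower, if the ratio of (CPM + 1) was at least 2-fold and the cell sets bore it out. Between conditions both germ-free sets had to lie on the same side of all antibiotic sets, and within a condition every set had to show the same direction. Levels are not compared between genes.

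The ligand genes Epgn, Ereg and Areg follow each other in this order on the plus strand of mouse chromosome 5 (mm10, gene models of GENCODE vM21), with 39406 bases between Epgn and Ereg and 45952 between Ereg and Areg. Areg, which codes for amphiregulin, lies at chr5:91139599-91148432, Ereg (epiregulin) at chr5:91074622-91093646 and Epgn (epigen) at chr5:91027464-91035215. Tgfa (transforming growth factor alpha) lies at chr6:86195223-86275719. Of the receptors, Egfr lies at chr11:16752203-16918158, Erbb2 at chr11:98412470-98437716 and Erbb3 at chr10:128567523-128589652. The inhibitors are Lrig1 at chr6:94604529-94700158, a membrane protein known to lower receptor levels and to mark crypt base cells, and Errfi1 at chr4:150853919-150868892, a cytoplasmic protein (MIG6) that blocks the receptor kinase. The sources used here do not say whether counting used strand. On the opposite strand Mien1 overlaps Erbb2 and Slc25a26 overlaps Lrig1, with 2583 and 816 UMI of their own in all cells, so reads of these pairs could be shared.

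Promoter sequences were found for 7 of the 10 genes in RefSeq (GRCm38.p6). The 250 bases before the start are shown for 3 genes: Areg and Lrig1, whose levels ran in opposite directions from crypt to surface, and Errfi1, which the pathway can induce. Capitals mark matches to the cAMP response element TGACGTCA, the SP1 box GGGCGG and the TATA box TATAAA, searched on both strands; overlapping SP1 matches run together.
Areg, chr5:91139349-91139598, plus strand: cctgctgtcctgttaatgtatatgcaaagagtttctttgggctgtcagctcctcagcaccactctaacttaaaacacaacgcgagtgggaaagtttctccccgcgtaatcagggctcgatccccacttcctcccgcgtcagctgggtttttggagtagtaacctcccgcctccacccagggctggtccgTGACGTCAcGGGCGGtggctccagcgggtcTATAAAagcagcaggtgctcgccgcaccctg
Errfi1, second start site, chr4:150854820-150855069, plus strand: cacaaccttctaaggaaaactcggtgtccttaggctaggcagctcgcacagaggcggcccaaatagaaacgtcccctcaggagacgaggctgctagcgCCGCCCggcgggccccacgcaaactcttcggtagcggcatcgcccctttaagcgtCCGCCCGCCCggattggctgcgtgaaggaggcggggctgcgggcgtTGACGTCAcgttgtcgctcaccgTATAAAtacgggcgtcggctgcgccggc
Lrig1, chr6:94700146-94700395, minus strand: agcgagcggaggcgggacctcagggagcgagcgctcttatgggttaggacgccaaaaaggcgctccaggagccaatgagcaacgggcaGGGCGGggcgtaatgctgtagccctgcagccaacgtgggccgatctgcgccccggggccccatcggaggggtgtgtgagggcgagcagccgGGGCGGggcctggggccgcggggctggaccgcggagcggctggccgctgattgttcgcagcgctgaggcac
The Areg and Errfi1 windows shown each held the cAMP response element, starting 61 and 51 bases before the start, and a TATA box starting 31 and 28 bases before it. The window of the first Errfi1 start site, not shown, held none of these motifs. The Lrig1 window held 2 SP1 boxes and neither of the other motifs. Among 32851 windows of the same length, 1.55% held TGACGTCA, 12.37% TATAAA and 32.74% GGGCGG. The AP-1 motif TGANTCA, held by 6.75% of all windows, was in none of the members' windows. These are matches of letters only, and no binding was measured.

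Of the ligands, Areg and Hbegf were the well-measured members, with 17483 and 16237 UMI in all cells. Tgfa had 1170 UMI, Ereg 287 and Epgn 19. Of the receptors, Egfr had 3501 UMI, Erbb2 2863 and Erbb3 5183, and the inhibitors Lrig1 and Errfi1 had 4344 and 17524. Ereg and Epgn stayed below 20 CPM in both pools and were not ranked between conditions. Epgn had 18 UMI in the antibiotic pool and 1 in the germ-free pool and is not described further.

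Position along the crypt was read from a score, the share of surface genes among the UMI of 11 surface genes and 13 crypt genes. No member is in either list. Cells with at least 10 such UMI, outside gates for goblet, tuft and enteroendocrine cells, were cut into 5 bins by the quantiles over both conditions, so the bins are ranges and not cell types. The 1198 cells without a score had a median of 1009 UMI. The lowest bin is called the crypt end (477 antibiotic and 90 germ-free cells) and the highest the surface end (450 and 107 cells). Median UMI per cell at the antibiotic surface end was 5710.5, against 8760 at the crypt end and 18351 in the fourth bin. In germ-free cells it was 2956, against 4885 and 6080.5. Shallower copies of shared barcodes were 161 of the antibiotic surface-end cells and 26 of the crypt-end cells. The surface end thus differed from these bins in depth as well as in score. The sort fixed how many CD44-positive cells entered, so cell numbers per bin are not read.

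In antibiotic cells Areg was higher and Lrig1 lower at the surface end than at the crypt end. These were 2 of 8 ranked members, where 42.8% of all ranked genes were called, 11.6% as higher and 31.2% as lower. The median log2 ratio of the 8 members was 0.70, against -0.50 over all ranked genes. In germ-free cells Areg and Hbegf were higher and Lrig1 lower at the surface end, 3 of 6 ranked members where 24.1% of genes were called. All 3 germ-free calls ended without germ-free set 4, which left too few UMI, and when each cell was thinned to 1000 UMI. Germ-free set 3 had 15 cells and 48593 UMI at the crypt end, fewer cells than the 20 set as a minimum. At the surface end it had 40 cells and 60799 UMI. Its values at both ends, given below for each gene, therefore rest on few molecules.

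Areg stood at 148, 164 and 122 CPM at the crypt end of antibiotic sets 1, 2 and 3, and at 537, 705.5 and 707.5 CPM at the surface end. The groups did not overlap, and every surface value was more than 3 times any crypt value. Summed over the pool the level went from 142 to 672 CPM, 4.73-fold higher (interval 4.38 to 5.11). In germ-free set 3 Areg went from 82.3 to 938 CPM and in set 4 from 198 to 588 CPM, 3.42-fold higher over the pool (2.72 to 4.31). The climb ran through every bin: 142, 402, 518, 583 and 672 CPM in antibiotic cells, and 188, 397, 560, 633 and 643 CPM in germ-free cells. The largest step in both pools was the first.

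**Figure D1:**
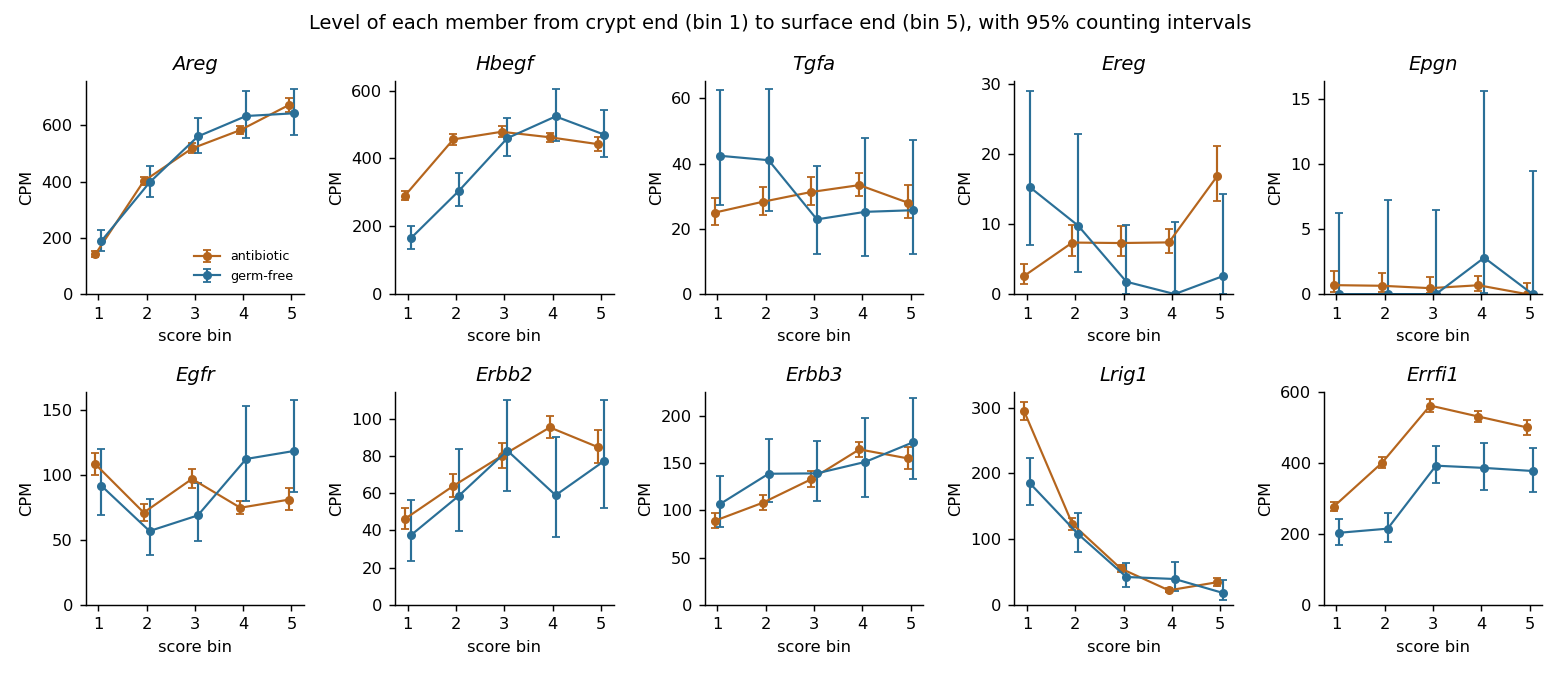
Level of each of the 10 genes in CPM (vertical axis, from 0) in the 5 bins of the crypt-to-surface score (horizontal axis), for the antibiotic (brown) and germ-free (blue) pools. Points are sums over the cells of a bin and bars are 95% counting intervals; Areg climbed from 142 to 672 CPM and Lrig1 fell from 295 to 34.4 CPM in the antibiotic pool.

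Hbegf (heparin-binding EGF-like growth factor, chr18:36504927-36515805), whose product is made as a membrane-anchored growth factor, had a flatter course in antibiotic cells. It stood at 243, 281 and 320.5 CPM at the crypt end of the 3 sets and at 414, 450.1 and 449 CPM at the surface end, a pool ratio of 1.52 (1.43 to 1.63) that was not called. All of that difference lay between the first bin, at 291 CPM, and the second, at 456 CPM. In germ-free sets 3 and 4 Hbegf went from 144 and 166 CPM to 460.5 and 472.5 CPM, 2.86-fold higher over the pool (2.22 to 3.70). The germ-free bins stood at 165, 305, 460, 524 and 471 CPM, so the pools differed in the first pair of bins and overlapped in their counting intervals from the third on.

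The summed level of 14 genes known to respond to tissue dissociation moved with this. It went from 2434 CPM at the crypt end to 3716 CPM at the surface end of germ-free cells, and lay between 4719 and 5150 CPM in all 5 antibiotic bins. Its part in the germ-free course of Hbegf was not tested.

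Tgfa stood between 25.0 and 33.4 CPM over the antibiotic bins and between 22.9 and 42.4 CPM over the germ-free bins. At the surface end it stood at 28.1 CPM (antibiotic pool) against 25.0 CPM at the crypt end, a ratio of 1.12 (0.878 to 1.44). In the germ-free pool Tgfa stood at 25.7 against 42.4 CPM, a ratio of 0.61 (0.26 to 1.31). The surface value lay below the crypt value in both germ-free sets, but 25 and 10 UMI were too few for ranking. The set 3 values of 61.7 and 49.3 CPM rest on too few molecules to give a direction. Ereg had 15 UMI at the crypt end and 75 at the surface end of antibiotic cells, too few to be ranked. That is 2.58 and 16.8 CPM, a ratio of 6.52 (3.71 to 12.2), and 1 cell of the pool alone held 22 UMI. The 9 and 1 UMI of germ-free cells ran the other way.

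None of the receptors was called between the ends of the crypt axis in either pool. Erbb2 stood at 44.8, 44.8 and 47.9 CPM at the crypt end and 73.3, 73.5 and 98.6 CPM at the surface end of antibiotic sets 1, 2 and 3. The ratio was 1.83 (1.56 to 2.15), short of 2-fold. Mien1, which overlaps Erbb2, went from 37.6 to 84.0 CPM between the same ends, and its share in the reads of Erbb2 was not tested. Erbb3, a receptor with little kinase activity of its own, stood at 107, 86.6 and 82.1 CPM and at 165, 142 and 161 CPM, a ratio of 1.75 (1.56 to 1.96). In germ-free cells Erbb2 went from 37.3 to 77.15 CPM, a ratio of 2.07 (1.15 to 3.76). The surface value lay above the crypt value in both germ-free sets. The set 3 values of 20.6 and 32.9 CPM rest on too few molecules to give a direction. The 22 and 30 Erbb2 UMI of the pool were too few for ranking, so it could not be called.

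In antibiotic cells Egfr did not run in the direction of Erbb2 and Erbb3. It stood at 146, 85.6 and 107 CPM at the crypt end of antibiotic sets 1, 2 and 3 and at 113, 70.9 and 73.9 CPM at the surface end. Each set lay below its own crypt value, yet the groups overlapped, with a ratio of 0.748 (0.656 to 0.853). That is a log2 ratio of -0.41, where the median over all ranked genes was -0.50. In germ-free set 3 it stood at 103 and 82.2 CPM, on totals of 48593 and 60799 UMI, too few to give a direction. Set 4 stood at 90.6 and 125 CPM, and the germ-free pool ratio was 1.29 (0.852 to 1.95).

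Lrig1 ran opposite to Areg. It stood at 367.5, 284 and 267 CPM at the crypt end of antibiotic sets 1, 2 and 3 and at 30.6, 32.2 and 37.7 CPM at the surface end. No values overlapped, and the pool level of 34.4 CPM was 8.58-fold lower than 295 CPM (7.27 to 10.2). Germ-free sets 3 and 4 both stood at 185 CPM at the crypt end and at 16.5 and 18.3 CPM at the surface end, where the pool held 7 UMI, 10.3-fold lower (4.82 to 26.2). With a crypt list of 6 genes the germ-free log2 ratio went from -3.29 to -1.38, still called, and among cells with at least 1000 UMI and at most 15% mitochondrial UMI the call ended. Slc25a26, its overlapping neighbour, stood at 38.4 CPM at the crypt end and 9.65 CPM at the surface end of antibiotic cells, and its share in the reads of Lrig1 was not tested. The related gene Lrig3 was also lower at the surface end, at 134 against 45.4 CPM.

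Errfi1 stood at 299, 280.4 and 264 CPM at the crypt end of antibiotic sets 1, 2 and 3 and at 506, 506 and 496 CPM at the surface end. The groups were apart, but the ratio of 1.81 (1.70 to 1.93) fell short of 2-fold. In germ-free sets 3 and 4 it went from 144 and 209 CPM to 329 and 387 CPM, a ratio of 1.86 (1.45 to 2.38). Its highest antibiotic level was in the middle bin, at 563 CPM.

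A list of 45 other pathway genes was followed beside the members: further ligands and the receptor Erbb4, shedding proteins, the RAS-MAPK chain, receptor turnover and inhibitors, and target and feedback genes. In antibiotic cells 31 of them were ranked between crypt and surface end, of which 2 were higher and 4 lower. Of all ranked genes 42.8% were called there, so the list was called less often than genes at large. The kinase gene Mapk3 (103 to 223 CPM) and the target gene Fosl1 (36.9 to 78.1 CPM) were higher. Lrig3, related to Lrig1, was lower. So were the inhibitors Spred2 (170 to 75.4 CPM) and Socs5 (20.3 to 4.27 CPM) and the shedding factor Rhbdf2 (23.4 to 7.18 CPM). In germ-free cells 5 were ranked and none was called, where 24.1% of all ranked genes were, at a depth of 589571 and 388839 UMI per end. The other ligands were scarce: Btc had 231 UMI, Egf 108, Nrg4 48, Nrg1 38 and Nrg2 11 in the antibiotic pool, and the receptor Erbb4 had 10.

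Region was read from 7 proximal and 7 distal genes, in cells outside the 3 gates with at least 3 UMI of the lists. Cells with a proximal share of at least 0.8 were taken as proximal (1686 antibiotic and 257 germ-free cells) and those with at most 0.2 as distal (225 and 68 cells). Over both pools 436 cells had a share between 0.7 and 0.9, and 249 between 0.1 and 0.3. In antibiotic cells none of 8 ranked members was called between distal and proximal cells, where 14.5% of genes were. In germ-free cells 1 of 7 was called, Errfi1, where 10.3% of genes were.

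Areg stood at 579, 563 and 553 CPM in proximal cells of antibiotic sets 1, 2 and 3 and at 210, 471 and 294 CPM in distal cells. Every distal value lay below every proximal one, but set 2 lay close, and the pool ratio of 0.617 (0.582 to 0.653) was not called. Without antibiotic set 2 it was called, at a log2 ratio of -1.03. In germ-free sets 3 and 4 Areg stood at 626.5 and 560.5 CPM in proximal cells and at 320.5 and 284 CPM in distal cells, with a pool ratio of 0.509 (0.406 to 0.633), just short of 2-fold. With distal cells gated by the 3 Hox genes alone and, at the same time, Cyp2c55 left out of the proximal list, the antibiotic difference was larger, at a log2 ratio of -2.27, while the germ-free value was 0.70, in the other direction and not called.

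The crypt and surface parts of the score (its lowest and highest pair of bins) did not show the same regional values. In the crypt part Areg stood at 318 CPM in proximal and 334 CPM in distal antibiotic cells, a ratio of 1.05 (0.946 to 1.16). In the surface part it stood at 667 and 339.5 CPM, a ratio of 0.509 (0.459 to 0.564). The distal sets 1, 2 and 3 were at 142, 513 and 301 CPM in the crypt part and at 224, 503 and 242 CPM in the surface part, so they overlapped between the parts, whereas the proximal sets went from 349, 325 and 299 CPM to 644, 618 and 712 CPM and did not. Germ-free cells gave 359 and 354 CPM in the crypt part, and 787 and 253 CPM in the surface part, the last from 18 cells, fewer than the 20 set as a minimum. The surface genes of the score summed to 19630 CPM in the proximal and 12710 CPM in the distal surface part of antibiotic cells. Their part in the regional difference of Areg was not tested, and neither was the difference between the parts.

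**Figure D2:**
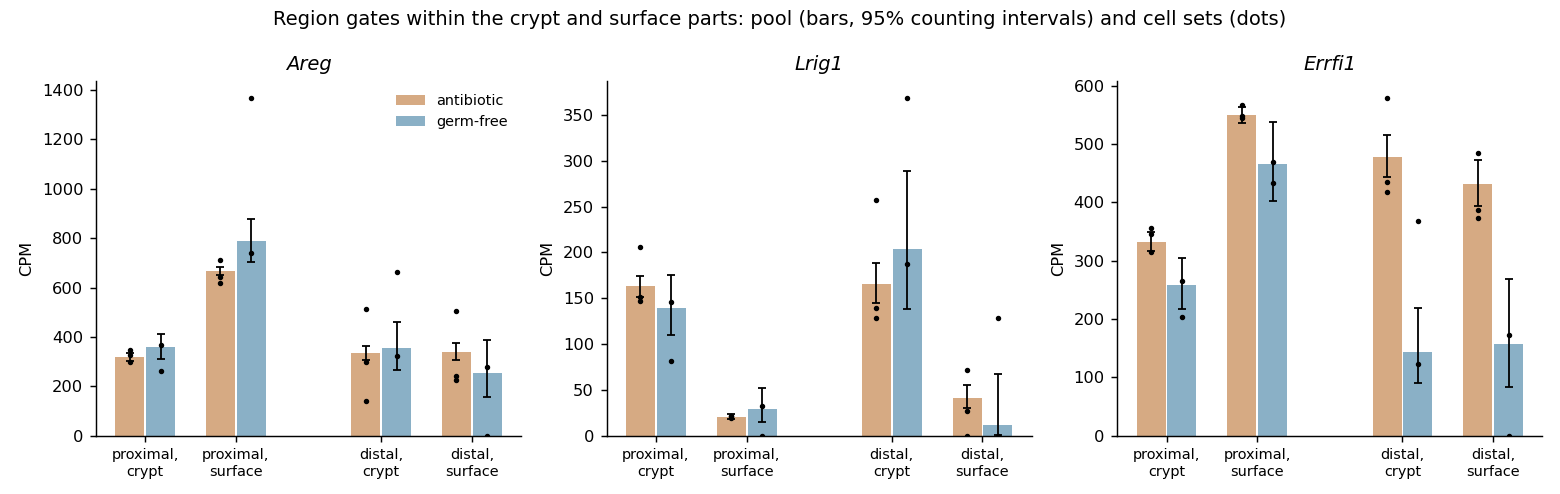
Levels of Areg, Lrig1 and Errfi1 in CPM (vertical axis, from 0) in proximal and distal cells of the crypt and surface parts, for the antibiotic (brown) and germ-free (blue) pools. Bars are pool sums with 95% counting intervals and dots are cell sets; Areg in antibiotic cells went from 318 to 667 CPM between the parts in proximal cells and from 334 to 339.5 CPM in distal cells.

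Ereg was found mostly in proximal cells. Proximal antibiotic cells held 230 UMI (10.7 CPM) in 121 cells, and distal ones 4 UMI (1.09 CPM), all in 1 cell, a ratio of 0.103 (0.0277 to 0.266). In the crypt part there were 48 UMI in proximal and 0 in distal cells, where 0 allows up to 2.08 CPM (3 counts), and in the surface part 135 and 0, which allows up to 2.65 CPM. Against these limits proximal cells were at least 4.69-fold and at least 4.32-fold above distal cells. The counting intervals, which also cover the proximal UMI, give distal to proximal ratios of up to 0.273 and 0.289. In germ-free cells 16 UMI were proximal and 0 distal, which allows up to 9.41 CPM against 12.2 CPM, but the counting interval of the ratio reached 1.07. Ereg lay below the 20 CPM needed for ranking, so it is not among the called members.

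Errfi1 was lower in distal germ-free cells. It stood at 288.5 and 388 CPM in proximal cells of sets 3 and 4 and at 137 and 149 CPM in distal cells, 2.57-fold lower over the pool (1.90 to 3.54). In antibiotic sets 1, 2 and 3 it went from 522, 540.2 and 503 CPM to 440.2, 388 and 405.5 CPM, a ratio of 0.780 (0.738 to 0.823). Within the crypt part of antibiotic cells it ran the other way in every set, from 333 to 478 CPM over the pool, a ratio of 1.44 (1.31 to 1.57). The dissociation genes summed to 4446 and 5431 CPM in the proximal and distal crypt part of these cells, and their part in it was not tested. The germ-free call ended with region limits of 0.6 and 0.4, without germ-free set 4, and among cells with at least 1000 UMI and at most 15% mitochondrial UMI.

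None of the other members was called between all distal and all proximal cells of either pool. Hbegf was at 458 and 454.5 CPM in proximal and distal antibiotic cells, a ratio of 0.992 (0.941 to 1.05). Its germ-free levels were 391 CPM proximally and 292 CPM distally, a ratio of 0.746 (0.592 to 0.932), with the distal value below the proximal value in both sets. Within the germ-free crypt part Hbegf stood at 205 CPM in proximal and 341 CPM in distal cells, a ratio of 1.67 (1.17 to 2.34) that was not called. Within the surface part the values were 565 CPM and 205 CPM, the last from 18 distal cells, under the minimum of 20, so they were not compared. In antibiotic cells Erbb3 stood at 149.7 and 96.7 CPM, Erbb2 at 85.5 and 62.6 CPM and Egfr at 87.6 and 60.9 CPM, each with its 3 distal sets below the proximal values of the same sets. For Erbb2 neither part kept that order in every set, with ratios of 0.811 (0.623 to 1.04) in the crypt part and 0.903 (0.724 to 1.11) in the surface part. Egfr kept it in the surface part, at 0.710 (0.541 to 0.916), but not in the crypt part, at 0.859 (0.686 to 1.07). Erbb3 kept it in both, at 0.872 (0.718 to 1.05) in the crypt part and 0.698 (0.581 to 0.833) in the surface part. Lrig1 stood at 60.4 and 97.6 CPM, and at 163 and 166 CPM within the crypt part. Within the surface part it stood at 20.45 and 41.55 CPM, a ratio of 2.03 (1.45 to 2.79). That difference was not called, and the sets did not all show the same direction. Of the pathway list, 29 genes were ranked in antibiotic cells, where 14.5% of all ranked genes were called. The inhibitor Spry2 was higher in distal cells (20.6 to 67.2 CPM) and Fosl1 was lower (78.4 to 33.9 CPM), the only calls of the list. Spry2 was also higher within the crypt part (25.6 to 81.1 CPM), where 11.0% of all ranked genes and none of the members were called, and within the surface part (20.5 to 52.2 CPM), where 13.8% and again none of the members were.

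Goblet cells, which secrete mucus, were gated as cells with at least 1% of UMI and at least 5 UMI from 10 goblet genes. The gate took 105 antibiotic and 80 germ-free cells, and 177 cells of both pools had a goblet share between 0.5% and 2%. Against cells in none of the 3 gates, Areg and Erbb2 were lower and Lrig1 was higher in goblet cells of both pools. These were 3 of 8 ranked members in antibiotic cells, where 21.4% of genes were called, and 3 of 7 in germ-free cells, where 14.4% were. Without germ-free set 4 only the germ-free call of Areg was left.

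Areg stood at 112, 169 and 156 CPM in goblet cells of antibiotic sets 1, 2 and 3, against 464, 453 and 456 CPM in the other cells, 3.04-fold lower over the pool (2.64 to 3.53). In germ-free sets 3 and 4 it stood at 136 and 71.2 CPM against 473.5 and 429.5 CPM, 5.41-fold lower (3.65 to 8.40). No goblet value overlapped any value of the other cells. Since Areg was low at the crypt end too, goblet cells were also set against the crypt part alone. There antibiotic crypt cells stood at 277 CPM of Areg and goblet cells at 150.2 CPM, 1.84-fold apart (1.59 to 2.14) and not called, while in germ-free cells it was 3.55-fold lower, a call that ended without germ-free set 4. In that comparison 14.9% of all ranked genes were called in antibiotic cells and 13.3% in germ-free cells.

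Erbb2 stood at 22.3, 32.7 and 23.5 CPM in goblet cells of antibiotic sets 1, 2 and 3 and at 72.6, 70.4 and 81.3 CPM in the other cells, 2.84-fold lower (2.03 to 4.11). In germ-free sets 3 and 4 it stood at 22.7 and 15.0 CPM against 39.0 and 58.4 CPM, 3.48-fold lower (1.46 to 10.9) on 5 goblet UMI. That germ-free call ended under 4 of 12 alternatives, and with the mean of per-cell CPM the log2 ratio went from -1.74 to -0.56. Mien1, on the opposite strand, stood at 120.3 CPM in antibiotic goblet cells and 63.4 CPM in the other cells, so it ran the other way. Against the crypt part Erbb2 was also lower in antibiotic goblet cells, at 26.7 against 55.3 CPM, but that call ended under 6 of 11 alternatives, among them leaving out the shallower copies of shared barcodes, at a log2 ratio of -0.97.

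Lrig1 stood at 319, 239 and 203 CPM in goblet cells of antibiotic sets 1, 2 and 3 and at 120.2, 106 and 95.5 CPM in the other cells, 2.35-fold higher (2.09 to 2.64). In germ-free sets 3 and 4 it stood at 250 and 202 CPM against 114 and 99.96 CPM, 2.05-fold higher (1.54 to 2.70). Against the crypt part of antibiotic cells, at 206 CPM, the goblet level of 245 CPM was not called. With the goblet gate raised to 2% of UMI the antibiotic log2 ratio went from 1.22 to 0.39, and that call also ended with the mean of per-cell CPM. The germ-free call of Lrig1 ended under 6 of 12 alternatives, with a lowest log2 ratio of 0.77.

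**Figure D3:**
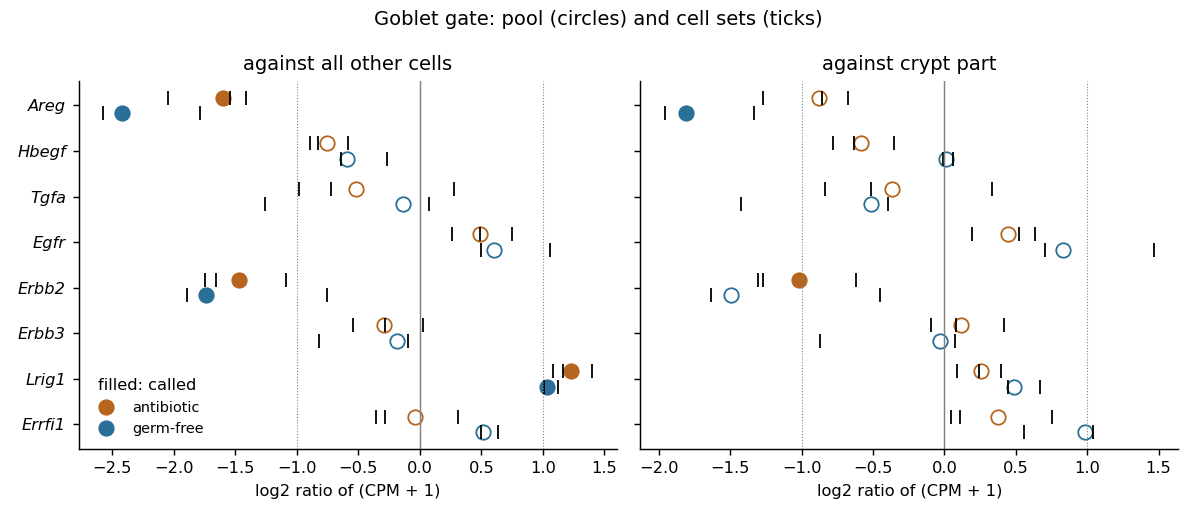
Log2 ratio of (CPM + 1) of the 8 better-measured genes in goblet cells (horizontal axis), against all other cells and against the crypt part alone, for the antibiotic (brown) and germ-free (blue) pools. Circles are pools, filled where called, short bars are cell sets and dotted lines mark 2-fold; Areg, Erbb2 and Lrig1 are filled in both pools against all other cells.

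The remaining members were not called in goblet cells. Egfr stood at 166, 110.2 and 103 CPM in goblet cells of antibiotic sets 1, 2 and 3, against 98.3, 78.3 and 85.7 CPM in the other cells, and at 204.5 and 124 CPM in those of germ-free sets 3 and 4, against 97.5 and 87.2 CPM. All 5 sets had more in goblet cells, with pool ratios of 1.41 (1.19 to 1.66) and 1.53 (1.07 to 2.12). Hbegf went from 423 to 250.1 CPM in antibiotic and from 349 to 232 CPM in germ-free cells. The crypt part alone stood at 376 CPM of Hbegf in antibiotic cells, a goblet to crypt ratio of 0.664 (0.591 to 0.745). In germ-free cells the crypt part stood at 230 CPM, a ratio of 1.01 (0.765 to 1.31), so no difference was left there. Errfi1 stood at 455 CPM outside and 442 CPM inside the goblet gate of antibiotic cells, and at 291 and 415 CPM in germ-free ones. Ereg had 0 UMI in goblet cells of both pools, which allows up to 2.36 CPM in antibiotic cells, at least 3.25-fold below the 7.66 CPM of the other cells by that limit, with a counting interval of the ratio that reached 0.382.

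Of the pathway list, 32 genes were ranked in antibiotic goblet cells, of which 3 were higher and 2 lower, where 21.4% of all ranked genes were called. Etv5, a transcription factor gene that the RAS-MAPK chain can induce, was 14.6-fold higher at 44.8 against 3.07 CPM. Phlda1 (53.4 to 122 CPM) and Rnf41 (13.5 to 29.1 CPM), which codes for a ubiquitin ligase acting on ERBB3, were higher as well. Cbl, a ubiquitin ligase gene for the receptor, was lower (113 to 51.1 CPM), and so was Fosl1 (64.2 to 27.5 CPM). In germ-free cells 22 were ranked and none was called, where 14.4% of all ranked genes were. Against the crypt part alone 32 were ranked in antibiotic cells, where 14.9% of all ranked genes were called. Etv5, Phlda1 and Dusp6 were higher and Cbl lower in goblet cells there, while Rnf41 and Fosl1 were not called. The dissociation genes summed to 7858 CPM in antibiotic goblet cells against 4905 CPM in the other cells, and to 5027 against 3265 CPM in germ-free cells, and their part in these differences was not tested.

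Between conditions none of the 8 ranked members was called, where 3.54% of 6462 ranked genes were. For 4 members both germ-free sets lay below all antibiotic sets by less than 2-fold, an order without regard to size that 24.5% of ranked genes showed.

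Errfi1 had the widest gap. It was measured at 446, 460.1 and 453 CPM in antibiotic sets 1, 2 and 3, whereas germ-free sets 3 and 4 gave 263 and 309 CPM, with pool levels of 454 and 303 CPM, a ratio of 0.668 (0.625 to 0.713). Hbegf stood at 417, 410.3 and 419.5 CPM and at 323 and 339.5 CPM, a ratio of 0.811 (0.761 to 0.864). Erbb2 stood at 70.4, 68.7 and 79.5 CPM and at 37.2 and 54.1 CPM, a ratio of 0.702 (0.595 to 0.823). Areg stood at 448, 441 and 446 CPM and at 437 and 394 CPM, a ratio of 0.899 (0.847 to 0.952). With equal weight for the 5 bins and the goblet cells in both pools, the log2 ratio of Errfi1 was -0.45, that of Hbegf -0.14 and that of Erbb2 -0.26, while that of Areg was 0.02 and so changed sign.

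The dissociation genes summed to 4999 CPM in the antibiotic pool and 3441 CPM in the germ-free pool, in the same direction as these 4 members. Their part was not tested. Pearson correlations of log2 levels with that sum were taken over the 5 bins and the goblet cells of both pools (12 points that share libraries and depth). Errfi1 had a correlation of 0.67, Hbegf one of 0.17, Erbb2 one of -0.20 and Areg one of -0.22.

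**Figure D4:**
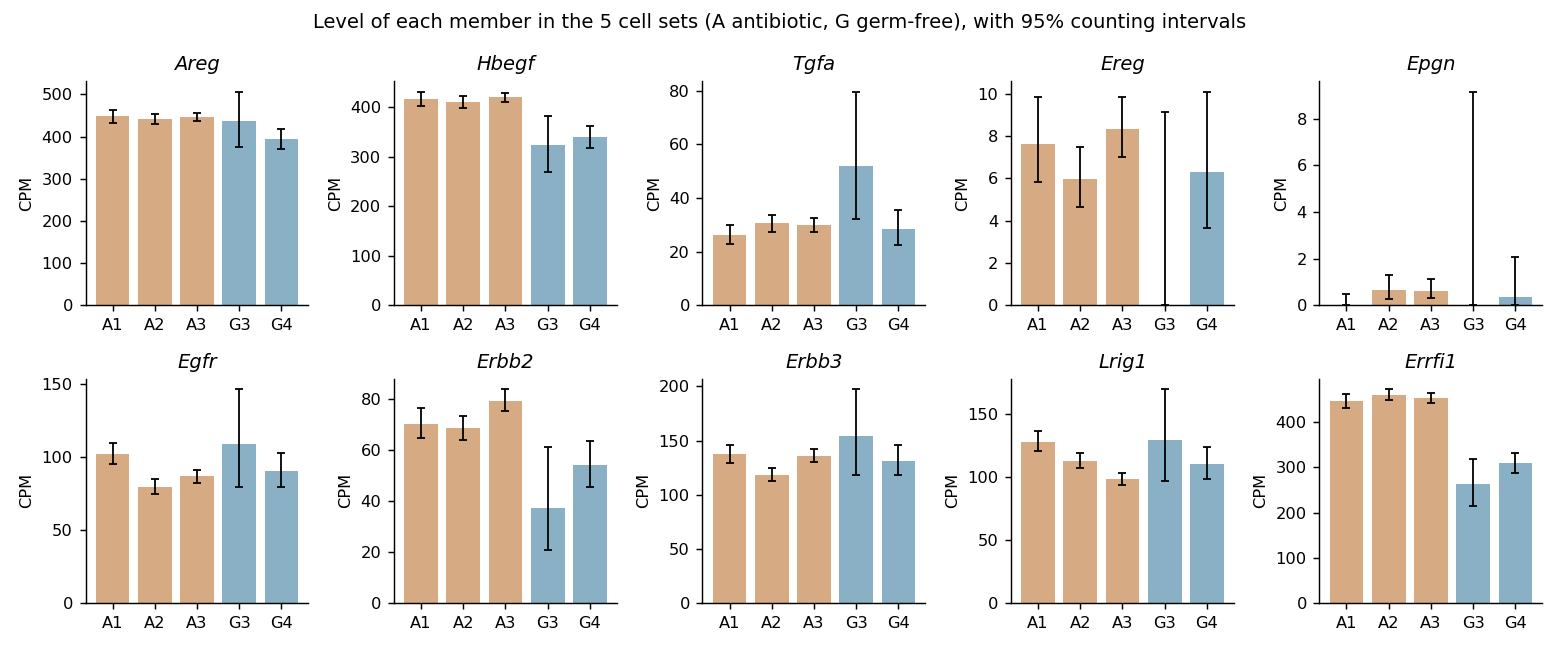
Level of each of the 10 genes in CPM (vertical axis, from 0) in antibiotic sets 1 to 3 (brown, A1 to A3) and germ-free sets 3 and 4 (blue, G3 and G4), with 95% counting intervals. Errfi1 lay between 446 and 460.1 CPM in the antibiotic sets and at 263 and 309 CPM in the germ-free sets, without a call.

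The other ranked members overlapped between the conditions. Egfr stood at 102, 79.8 and 87.0 CPM in the antibiotic sets and at 109 and 90.8 CPM in the germ-free sets, a ratio of 1.06 (0.936 to 1.196). Erbb3 had a ratio of 1.03 (0.928 to 1.14), Lrig1 one of 1.03 (0.920 to 1.15) and Tgfa one of 1.08 (0.867 to 1.32). Tgfa stood at 52.1 CPM in germ-free set 3 and between 26.2 and 30.5 CPM in the other 4 sets. Of the pathway list 29 genes were ranked, where 3.54% of all ranked genes were called. In germ-free cells 2 were lower, both of them target genes: Dusp5 (61.5 to 29.0 CPM) and Fosl1 (62.7 to 30.6 CPM).

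Over the same 12 points the genes most like each member were named, as a description without a test. The course of Areg was most like that of Ceacam20 (Pearson correlation 0.98), a surface gene that itself enters the score, followed by Slc13a2 and Clcn2, both at 0.98. Lrig1 was most like Nrp2 (0.99), Focad (0.98) and Mcc (0.98), and Erbb2 most like Osbpl3 (0.98), Mpzl3 (0.98) and Bmp3 (0.97). Erbb3 was nearest to Anks4b (0.97), Hbegf to 2900026A02Rik (0.95) and Errfi1 to Trib1 (0.94). Egfr was nearest to Smarca2 (0.85) and Tgfa to Naa30 (0.84). Among the members, Areg and Erbb2 ran together at 0.93, Areg and Hbegf at 0.84, and Areg and Lrig1 apart at -0.89.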

How the data were processed

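The matrix the authors deposited holds natural log values of 32285 genes in 4183 cells. Exponentiated, less 1, they sum to 10000 per cell, and dividing by a cell's smallest nonzero value gave whole numbers within 0.01, so UMI counts were recovered. Per the submitters' processing notes, mm10, bustools, kallisto and Cell Ranger 7.0.0 were used, in roles not stated. Cell sets follow the numbers in the cell names; the germ-free ones do not match the labels' library numbers.

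The members, gene lists and limits were chosen with earlier results of these data known. Named genes are the members, pathway genes that were called or abundant in their role, and the 3 ranked genes most correlated with each member. Scrublet marked 17 cells (0.41%), too few to count as working, so no doublets were removed. The call rule was tried on simulated counts with Poisson error alone. That setting has no spread between cell sets or mice, so it does not show how often the rule errs in these data. Alternatives covered scaling, pseudocount, cell filters, thinning, call minimums, gates, bins, weighting and each cell set left out; keeping only the deepest cell of a shared barcode and at least 3 list UMI for a score were chosen after seeing the data. Scanpy 1.11.5, SciPy 1.17.1, pandas 2.3.3, matplotlib 3.10.9, NumPy 2.4.6 and Python 3.11.15 were used.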

Additional observations from a re-analysis of the deposited data

How the results depend on the processing

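Of 12 member differences called in the 7 comparisons, 154 values under alternatives all had the sign of the main value, and 132 of them were called. Areg and Lrig1 from crypt to surface in antibiotic cells were called under all 14 alternatives tried for them, at log2 ratios of 1.48 to 2.43 and -3.57 to -2.49. Areg in goblet cells was called under all 13 alternatives in antibiotic cells (-1.78 to -1.05) and all 12 in germ-free cells (-2.90 to -1.54). Thinning each cell to 1000 UMI left out 524 antibiotic and 143 germ-free cells. It changed the number of members called from 2 to 4 between surface and crypt end of antibiotic cells (Erbb3 and Errfi1 added) and from 3 to 0 in germ-free cells, from 0 to 1 between distal and proximal antibiotic cells (Egfr) and from 1 to 2 in germ-free cells (Hbegf added), and from 3 to 1 in germ-free goblet cells. Between distal and proximal germ-free cells, where 1 member was called, the number was 2 with the mean of per-cell CPM, 2 with totals without mitochondrial genes, Gm42418, AY036118 and Lars2, 2 with no minimum for a call and 0 with region limits of 0.6 and 0.4. In antibiotic cells, where none was called, it was 1 with no minimum and 3 with distal cells gated by Hox genes and Cyp2c55 left out of the proximal list, 2 choices changed together (Areg, Erbb2 and Lrig1). In germ-free goblet cells it was 1 among cells with at least 1000 UMI and at most 15% mitochondrial UMI, a filter that left 199 germ-free cells. Leaving out each cell set in turn gave 0 to 1 members between distal and proximal antibiotic cells, the 1 without antibiotic set 2, and 0 to 3 between surface and crypt end, 0 to 1 between distal and proximal cells and 1 to 3 in goblet cells of the germ-free pool, in each case the lowest without germ-free set 4. No paired analysis was possible because the labels' library numbers of the 2 conditions share none and each condition was 1 pool. Depth limits Ereg, Epgn and most germ-free values, and differences between mice could not be measured.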

Other observations

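The enteroendocrine gate, cells with UMI of at least 3 of 8 hormone cell genes, took 5 antibiotic cells and no germ-free cell, too few for a comparison. These cells held 37 Egfr UMI, 1382 CPM (interval 973 to 1905, counting error only), with Egfr found in 5 of 5 cells and at most 18 UMI in a single cell. They held 9 Lrig1 UMI in 3 cells and no Areg UMI. The tuft gate took 11 antibiotic cells, with 11 Erbb3 UMI in 4 cells (122.5 CPM, interval 61.2 to 219) and 1 Egfr UMI.

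Among the ligands outside the 10 members, Egf stood at 16.5 CPM in antibiotic goblet cells (21 UMI in 15 cells) and at 32.2 CPM in germ-free goblet cells (10 UMI in 9 cells), against 2.96 and 3.87 CPM over all cells of the pools. Btc stood at 10.2 and 38.6 CPM in goblet cells (13 and 12 UMI), against 6.32 and 11.3 CPM over all cells. Both were too scarce to be ranked. Within goblet cells Phlda1 stood at 122 CPM in the antibiotic and 41.8 CPM in the germ-free pool, and the protease gene Adam10 at 60.6 and 122 CPM.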
